A study of Rhizophagus irregularis DAOM 181602=DAOM 197198 with 30 samples.

Results

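Spores of Rhizophagus irregularis (strain DAOM197198), an arbuscular mycorrhizal fungus, that were germinating and had received the synthetic strigolactone GR24 were compared between 14 d and 7 d after treatment. The comparison covered all 30282 gene models of the deposited tables, joined by model identifier, and each model is given here by its number in the JGI catalogue Gloin1. In the 5 GR24 libraries concerned 9652 models had no read, 5965 had reads but too few to be tested, and 14665 were tested. The GR24 spores at 14 d gave 3 libraries and those at 7 d gave 2, of 20 libraries with a column in the 1 h to 14 d time course and 30 samples in the series. The vehicle controls, which received acetone diluted 1000 times, gave 3 libraries at 14 d and 2 at 7 d. Each 7 d group has 3 samples in the series, but GR24 replicate 1 and acetone replicate 3 have no column in the deposited tables. All these spores (80000 per culture, in 40 ml of liquid M medium, in the dark with 2% CO2) had germinated for 2 d before GR24 was added to a final 1e-06 M, so no group is an ungerminated spore. The labels name germinating spores as the only source. Histone, tubulin, actin and ribosomal protein models were detected. The gene models are those of the catalogue of this fungus, though some, such as Gloin1_2569, are annotated with bacteriophage proteins. Markers of other organisms were not otherwise looked for. Poly(A)-selected RNA was sequenced, and nothing in the labels says that replicates came from separate spore batches, so the spread behind each p-value is that between these samples and may be technical.

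Strigolactones are plant hormones that roots also release into soil, and in arbuscular mycorrhizal fungi they stimulate spore germination, hyphal branching and energy metabolism before contact with a root. Without a host the germ tubes of these fungi live on the lipid and carbohydrate stored in the spore, and their growth eventually stops. Spores and hyphae hold many nuclei in a shared cytoplasm, so genes of DNA replication and mitosis report on nuclear division in the hyphae and not on separating cells.

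Over this interval 123 of 234 tested models in 7 lists of nuclear division fell (52.6%) and 15 rose. A further list of this theme, chromatin assembly and histone modifiers, was not among these 7 and had 28 of 134 lower and 27 higher. Of 9 models of sulfate assimilation 5 rose and 1 fell. Of 70 cytosolic ribosomal protein models 54 fell by small amounts (list median -0.30 on the log2 scale). By edgeR's quasi-likelihood test with Benjamini-Hochberg adjustment over all tested models at an adjusted p of 0.05, 4121 models passed (28.1%). Of these 1945 were higher at 14 d (13.3%) and 2176 were lower (14.8%). Changes of at least 2-fold were found in 140 of the higher models (0.955%) and in 697 of the lower ones (4.75%). The split of all calls by direction depended on scaling. It was 2091 higher and 2082 lower with library totals alone, and 1778 higher and 2303 lower with upper-quartile factors. The log2 fold changes of all tested models lay between -9.53 and 3.10, with a median of -0.00. Levels are given as CPM, the usual read counts scaled to a common library size, and all fold changes are log2 of 14 d over 7 d with their standard error. CPM of the 2 times did not overlap in 3948 tested models that were higher at 14 d (26.9%) and 3857 that were lower (26.3%). In these whole-spore samples, fewer nuclei in division and less RNA per nucleus cannot be told apart.

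The 5 GR24 libraries held 8338429 to 10661354 reads assigned to genes, and the 5 acetone libraries 5786080 to 11812317. Log2 CPM of replicates correlated at 0.9955 to 0.9968 across models within the GR24 groups. The libraries at 7 d and 14 d stand in separate deposited tables, both of raw read counts. At 14 d a smaller share of reads matched several models (0.303% to 0.365% with GR24, against 0.646% and 0.927% at 7 d), and the same held with acetone (0.299% to 0.356%, against 0.733% and 1.09%). The share of reads in models whose best match is a protein of a mitochondrial genome was 0.0197% to 0.0218% with GR24 at 14 d and 0.0339% and 0.0457% at 7 d. Poly(A) selection leaves most mitochondrial transcripts out. With only the unique reads, which leave out the first share, 1957 models were higher at 14 d with GR24 and 2177 lower. With all reads these counts were 1945 and 2176. Leaving out the mitochondrial models, a setting chosen after seeing the data, gave 1941 models higher and 2162 lower.

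Core histones, the proteins that package DNA, are made mainly while DNA is copied. Of 23 core histone models 19 were tested, and 14 fell, 0 rose and 5 did not pass, with a median log2 fold change of -0.75. The 0 rises by edgeR became 1 at the unadjusted level of 0.05, and they were 0 with DESeq2 and 0 with limma-voom. Without 14 d replicate 2, 1 model rose. The summed level of the list was 2196, 2085 and 2210 CPM at 14 d with GR24, against 4315 and 4009 CPM at 7 d. The histone H3 model Gloin1_334093 had 3.44, 1.75 and 2.04 CPM at 14 d, against 125 and 92.5 CPM at 7 d. The 2 times did not overlap, and the log2 fold change was -5.51 ± 0.20 (edgeR adjusted p = 1.1e-09). A second H3 model, Gloin1_29937, had 29.1, 31.2 and 30.7 CPM against 224 and 180 CPM at 7 d (-2.74 ± 0.09). The H4 model Gloin1_29938 had 59.3, 57.7 and 57.1 CPM at 14 d, against 312 and 285 CPM at 7 d (-2.37 ± 0.07, edgeR adjusted p = 5.0e-15). Of the reads of this H4 model 13% also matched other models, so copies may share them. The H2A model Gloin1_343100 fell by 1.98 ± 0.07 and the H2B model Gloin1_340364 by 2.04 ± 0.07. Low-abundance copies came close to 0: the H3 model Gloin1_199734 had 3 reads in all at 14 d and 198 at 7 d, a ratio of 7 d to 14 d of 116 after scaling (95% exact interval 39.1 to 567, counting error only). Other histone models moved little, such as the more abundant Gloin1_336755 with 534, 498 and 577 CPM at 14 d, against 619 and 625 CPM at 7 d (-0.22). The called falls of the histone models ranged from -7.63 to -0.22 on the log2 scale.

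Of 48 tested models for replication licensing and fork proteins 38 fell, 0 rose and 10 did not pass, with a median of -0.91. No rise appeared at the unadjusted level of 0.05 in edgeR, or in DESeq2 or limma-voom (0 in each). The MCM proteins form the ring helicase that opens DNA at the fork. The MCM4 model Gloin1_74630 had 15.6, 13.8 and 14.3 CPM at 14 d, against 65.2 and 54.5 CPM at 7 d, a log2 fold change of -2.05. The MCM5 model Gloin1_6028 had 7.58, 5.43 and 6.57 CPM, against 48.6 and 42.2 CPM at 7 d (-2.81 ± 0.15, edgeR adjusted p = 3.8e-11). Models for MCM2, MCM3, MCM6 and MCM7 fell as well, from -0.67 for the MCM6 model Gloin1_39935 to -1.67 for the MCM7 model Gloin1_245895. PCNA, the sliding clamp of the DNA polymerases (Gloin1_335451), had 60.8, 56.4 and 62.7 CPM at 14 d, against 207 and 166 CPM at 7 d. The DNA polymerase model Gloin1_328449, of the alpha type that starts new strands, had 26.4, 24.2 and 30.5 CPM at 14 d, against 96.9 and 101 CPM at 7 d (-1.88 ± 0.10). The 2 times did not overlap in any of these, as in 26.3% of all tested models in the same direction. Proteins that mark replication origins moved less evenly. Origin recognition complex models for subunits 3 to 6 fell (-0.93, -2.02, -1.61, -0.61 and -2.44 for Gloin1_309469, Gloin1_25422, Gloin1_27365, Gloin1_18228 and Gloin1_15005). The subunit 2 model Gloin1_90942 stood at 42.4, 42.9 and 45.8 CPM at 14 d and 48.0 and 41.8 CPM at 7 d, which overlap (-0.05, edgeR adjusted p = 0.77). Among fork protection factors, the Swi3-domain model Gloin1_341179 had 0.984, 0.194 and 1.20 CPM at 14 d, against 50.0 and 40.8 CPM at 7 d (-5.82 ± 0.26). A model with the Timeless domain (Gloin1_26454) had 0 reads at 14 d and 103 at 7 d, which is at least 60.3-fold lower at 14 d against a floor of 3 reads over the group.

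Enzymes that supply deoxynucleotides followed. Of 10 models 7 fell, 0 rose and 3 did not pass, with a median of -1.69 (0 rises also at the unadjusted level in edgeR, with DESeq2 and with limma-voom). The summed level was 261, 245 and 266 CPM at 14 d, against 805 and 718 CPM at 7 d. Ribonucleotide reductase, which turns ribonucleotides into deoxyribonucleotides, has a large and a small subunit. The small-subunit model Gloin1_80358 had 12.5, 11.6 and 15.8 CPM at 14 d, against 85.5 and 77.3 CPM at 7 d (-2.62 ± 0.12, edgeR adjusted p = 5.5e-12). The large-subunit models Gloin1_343286 and Gloin1_84119 fell by 2.32 ± 0.10 and 2.06 ± 0.09. Thymidylate synthase (Gloin1_11517), which makes thymidylate from deoxyuridylate, fell by 2.24 ± 0.14. dUTPase (Gloin1_338821), which keeps uracil out of DNA, had 46, 44.5 and 51.6 CPM at 14 d, against 242 and 198 CPM at 7 d (-2.22 ± 0.09). The dihydrofolate reductase model Gloin1_345463 and the dCMP deaminase model Gloin1_344715 did not pass.

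The proteins that fold and hold chromosomes split by complex. Of 27 tested models 13 fell, 2 rose and 12 did not pass (median -0.25). Topoisomerases cut and rejoin DNA strands. DNA topoisomerase II, which untangles sister chromosomes (Gloin1_141416), had 4.13, 2.13 and 3.89 CPM at 14 d, against 134 and 148 CPM at 7 d, a log2 fold change of -5.38 ± 0.15 (edgeR adjusted p = 2.0e-14). Condensin, which compacts chromosomes for mitosis, fell as well. Its Gloin1_84059 model had 5.12, 5.24 and 5.83 CPM at 14 d, against 72.0 and 77.6 CPM at 7 d (-3.80 ± 0.13), and its SMC2 model Gloin1_5518 had 34.8, 36.1 and 37.7 CPM, against 122 and 125 CPM at 7 d (-1.78). The SMC4-type models Gloin1_205343 and Gloin1_205354 changed by -1.59 and -1.90. Cohesin, which holds sister chromatids together and also organises chromatin between divisions, did not follow. Its SMC1 model Gloin1_70899 had 245, 240 and 241 CPM at 14 d and 220 and 218 CPM at 7 d (0.13, edgeR adjusted p = 0.096). Its SMC3 model Gloin1_14451 had 143, 142 and 139 CPM, and 134 and 134 CPM at 7 d (0.07). Its RAD21-type model Gloin1_160424 was lower, by -0.25 (edgeR adjusted p = 0.0086). Topoisomerase I (Gloin1_143932), which relieves torsion during transcription too, was higher, at 386, 395 and 385 CPM against 312 and 324 CPM at 7 d (0.28 ± 0.06, edgeR adjusted p = 0.0011).

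Spindle and kinetochore proteins, which pull chromosomes apart, included several falls of more than 4 on the log2 scale. Of 51 tested models 21 fell, 4 rose and 26 did not pass, with a median of -0.23, and the number that rose was 2 without 14 d replicate 3 or 7 d replicate 2 and 7 without 7 d replicate 3. TPX2-type proteins carry the domain of a vertebrate factor that nucleates spindle microtubules. The TPX2-type model Gloin1_13002 had 5.12, 3.11 and 3.42 CPM at 14 d, against 117 and 116 CPM at 7 d, a log2 fold change of -4.92 ± 0.14 (edgeR adjusted p = 5.0e-15). A further model with this domain, Gloin1_241521, had 0.197, 0.194 and 0.370 CPM at 14 d, against 18.6 and 18.4 CPM at 7 d (-6.12 ± 0.30). Kinesins are motors that walk along or disassemble microtubules. The kinesin model Gloin1_342369 had 3.94, 3.49 and 4.35 CPM at 14 d, against 78.6 and 73.7 CPM at 7 d (-4.28 ± 0.13). The kinesin models Gloin1_337585 and Gloin1_68162 changed by -5.64 ± 0.20 and -5.70 ± 0.37. In each of these the lowest library at 7 d was above the highest at 14 d. That held in 26.3% of all tested models, and the rule that named Gloin1_241521 and Gloin1_68162 required it. On the other side stood a polo-like kinase model, Gloin1_27598 (0.74 ± 0.14, edgeR adjusted p = 0.00059), and a gamma-tubulin complex model, Gloin1_16057 (0.27 ± 0.07).

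Regulators of the cell cycle were mixed. Of 26 tested cyclins, cell cycle kinases and anaphase-promoting complex models 7 fell (26.9%), 3 rose (11.5%) and 16 did not pass. The median was 0.07, with 1 rise without 14 d replicate 3. Over all tested models 14.8% were lower and 13.3% higher, and the shares that rose in the cell cycle and repair lists were not above 13.3%. The B-type cyclin Gloin1_40846, the activator of the mitotic kinase, had 10.2, 11.4 and 10.1 CPM at 14 d, against 67.2 and 63.9 CPM at 7 d (-2.64 ± 0.12, edgeR adjusted p = 2.6e-12). A kinase model of the cyclin-dependent type, Gloin1_345038, changed by -2.59 ± 0.16. The Cdc25-type phosphatase Gloin1_6925, which removes the inhibitory mark set by WEE1-type kinases, was higher (0.35 ± 0.08), as was the anaphase-promoting complex model Gloin1_344940 (0.36 ± 0.10), whose call was lost without 14 d replicate 2 (0.30), 14 d replicate 3 (0.33) or 7 d replicate 2 (0.30). DNA repair had 23 of 53 tested models lower (43.4%), 6 higher (11.3%) and 24 not past the test (median -0.22), with 3 higher without 14 d replicate 3. The lower ones included the flap-nuclease-type model Gloin1_83232 (-0.89 ± 0.07). The higher ones included 2 of nucleotide excision repair, the ERCC-type nuclease Gloin1_296220 (0.67 ± 0.10) and the Rad4-domain model Gloin1_248248 (0.28 ± 0.06). Chromatin assembly and histone modifiers moved both ways, 28 lower (20.9%) and 27 higher (20.1%) of 134 (median -0.02). Among them the SNF2-type helicases Gloin1_349036 and Gloin1_336213 changed by -1.96 ± 0.08 and -1.88 ± 0.09, and a histone acetyltransferase of the SAGA type (Gloin1_10668) by 0.50 ± 0.08.

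**Figure D1:**
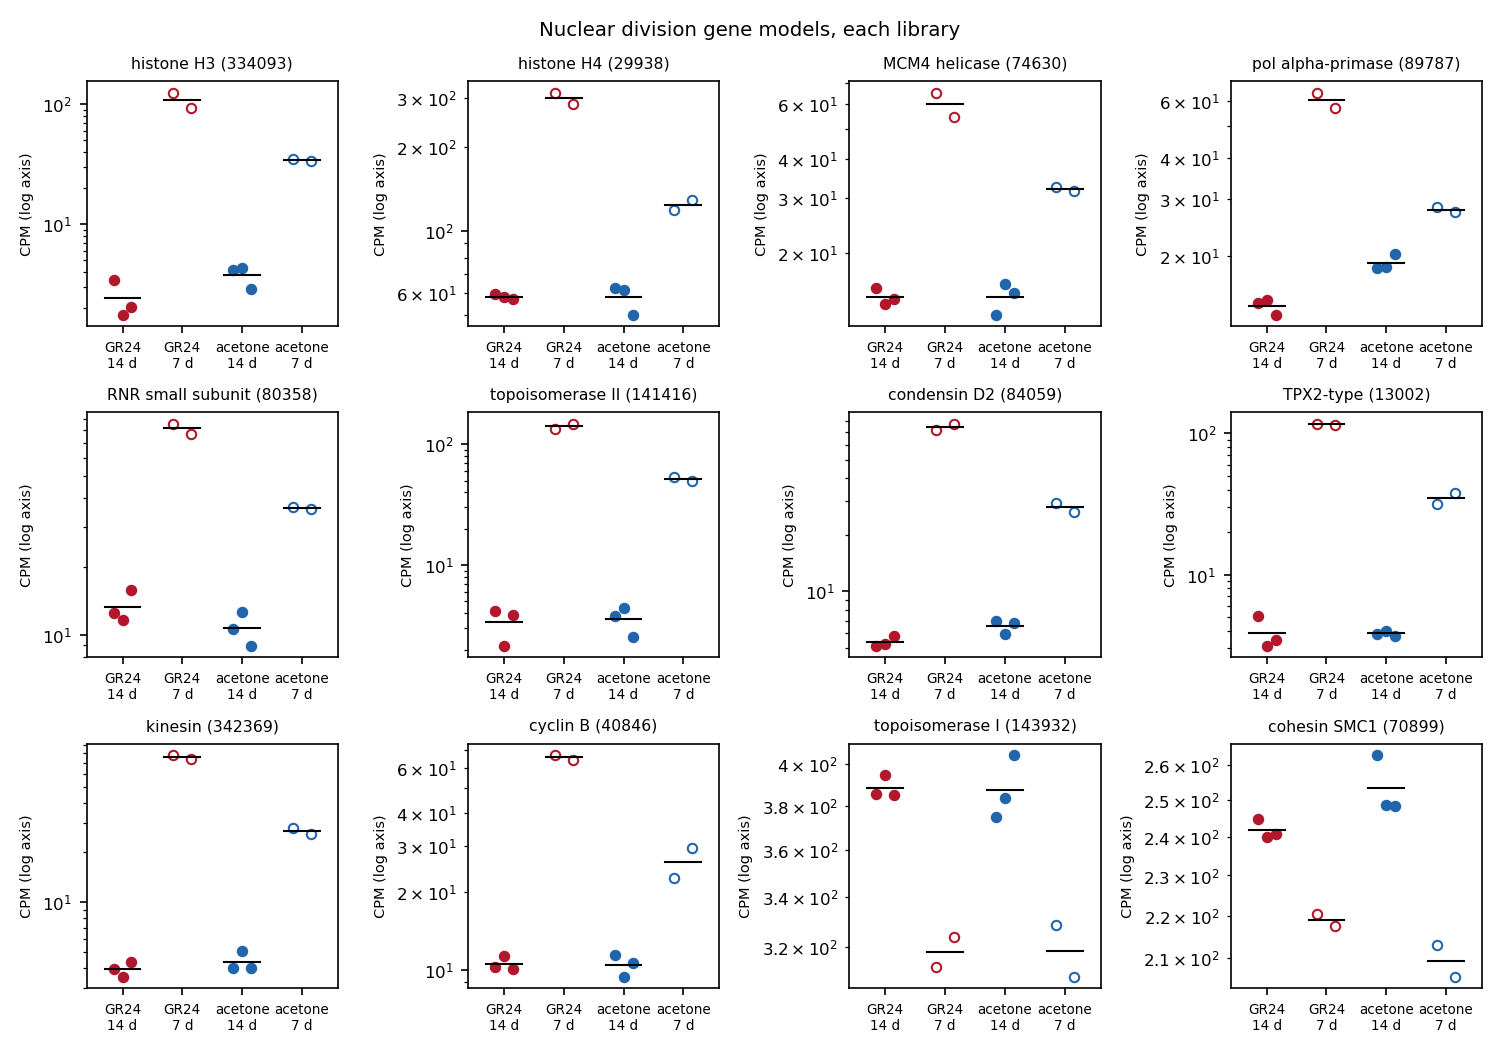
Levels of 12 nuclear division models in CPM on log axes (each panel has its own range), 1 point per library, filled at 14 d and open at 7 d, red with GR24 and blue with acetone, and a black bar at each group's mean. In 10 panels both GR24 libraries at 7 d are far above all 3 at 14 d, as for topoisomerase II (134 and 148 CPM, against 2.13 to 4.13 CPM at 14 d), and the last 2 panels, topoisomerase I and cohesin SMC1, lie slightly higher at 14 d.

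Ribosomal proteins fell by less but in most of their models. Of 70 tested cytosolic ribosomal protein models 54 fell, 1 rose and 15 did not pass, with a median of -0.30. Their summed level was 20309, 20641 and 20386 CPM at 14 d, against 25671 and 23164 CPM at 7 d. The L34 model Gloin1_343445 had 130, 122 and 121 CPM at 14 d, against 227 and 189 CPM at 7 d (-0.75 ± 0.08), and the S16 model Gloin1_342856 fell by 0.66 ± 0.07. The 1 model that rose, L10 (Gloin1_255098, 0.20 ± 0.06), lost its call without 14 d replicate 2 (0.19), 14 d replicate 3 (0.20) or 7 d replicate 3 (0.12). Ribosome biogenesis factors, which build ribosomes in the nucleolus, went the other way in more models, with 14 of 55 higher and 5 lower (median 0.06), and 2 lower without 14 d replicate 1 or 7 d replicate 2. Nop56-type Gloin1_337468 had 243, 280 and 275 CPM at 14 d, against 174 and 189 CPM at 7 d (0.55 ± 0.07). Translation factors and tRNA synthetases had 31 of 158 higher (19.6%) and 18 lower (11.4%), beside 13.3% and 14.8% over all tested models (median 0.03). Those counts were 19 and 11 without 14 d replicate 1, and 18 and 11 without 14 d replicate 3, with 11 lower without 14 d replicate 2. The initiation factor 2B-related model Gloin1_34261 had 84.2, 78.8 and 88.0 CPM at 14 d, against 36.1 and 32.9 CPM at 7 d (1.27 ± 0.10).

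Other housekeeping lists fell in part, beside 14.8% lower and 13.3% higher over all tested models. Of 40 proteasome models 17 fell, 0 rose and 23 did not pass (median -0.14), with 1 rise at the unadjusted level in edgeR and 0 in DESeq2 and limma-voom. The number that fell was 11 in DESeq2, and 8, 9, 10 and 9 without 14 d replicate 1, 2 or 3 or 7 d replicate 2. Of 50 nuclear-encoded respiratory chain and ATP synthase models, which make ATP in mitochondria, 17 fell, 1 rose and 32 did not pass (median -0.14), and 7 fell without GR24 7 d replicate 2 and 11 without 14 d replicate 1 or 3. The ATP synthase model Gloin1_131619 had 129, 141 and 135 CPM at 14 d, against 180 and 188 CPM at 7 d (-0.45 ± 0.07). Of 30 tested models that match mitochondrial genome proteins 23 fell and 0 rose (median -1.60, with 0 rises also at the unadjusted level, in DESeq2 and in limma-voom), and 14 fell without GR24 7 d replicate 2. Their counts rest on the few transcripts that passed poly(A) selection. Among tubulins and actin, the filaments of the cytoskeleton, 6 of 10 fell and 0 rose (median -0.25, with 0 rises by the same 3 counts), led by the beta-tubulin Gloin1_21548 at 90.4, 68.3 and 80.3 CPM, against 206 and 209 CPM at 7 d (-1.39 ± 0.09).

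Sulfate uptake and assimilation held the highest share of rises of the 37 lists, 5 of 9 models. Fungi take up sulfate, activate it to adenylyl sulfate and then to phosphoadenylyl sulfate, reduce it to sulfite and sulfide, and build sulfide into cysteine and methionine. Besides these 5, 1 fell and 3 did not pass (median 0.41), and the summed level was 3044, 2883 and 3483 CPM at 14 d, against 1719 and 1772 CPM at 7 d. The sulfate transporter Gloin1_349517 had 784, 655 and 1002 CPM at 14 d, against 287 and 284 CPM at 7 d (1.50 ± 0.23, edgeR adjusted p = 0.018). Its 14 d libraries differed widely but all lay above both 7 d libraries, and the call was lost without 7 d replicate 2 (1.51) or replicate 3 (1.49). ATP sulfurylase (Gloin1_78687), the first activating enzyme, had 751, 668 and 879 CPM at 14 d, against 356 and 358 CPM at 7 d (1.09 ± 0.10, edgeR adjusted p = 5.1e-05). Adenylyl sulfate kinase (Gloin1_68205), the second, was the member that fell, with 34.3, 39.1 and 40.2 CPM at 14 d, against 57.4 and 47.0 CPM at 7 d (-0.47 ± 0.11). That call was lost without 7 d replicate 2 (-0.32). Phosphoadenylyl sulfate reductase (Gloin1_348690) had 107, 103 and 114 CPM at 14 d, against 46.4 and 39.4 CPM at 7 d (1.32 ± 0.09, edgeR adjusted p = 1.9e-09). Sulfite reductase (Gloin1_340992) had 539, 615 and 640 CPM at 14 d, against 314 and 339 CPM at 7 d (0.86 ± 0.07). For these last 2 enzymes every 14 d library stood above both 7 d libraries, as in 26.9% of all tested models.

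In the next steps, sulfur amino acid synthesis, 3 of 20 models rose (15%), 6 fell (30%) and 11 did not pass (median -0.09). Over all tested models the shares were 13.3% higher and 14.8% lower. In this list 3 fell without 14 d replicate 2 and 2 without 7 d replicate 2. Homoserine acetyltransferase (Gloin1_349725), which makes the acceptor for sulfide, had 409, 374 and 442 CPM at 14 d, against 182 and 192 CPM at 7 d (1.12 ± 0.07). An enzyme of the cystathionine gamma-lyase type (Gloin1_350050), which interconverts cysteine and its precursors, had 496, 432 and 557 CPM at 14 d, against 250 and 220 CPM at 7 d (1.07 ± 0.11). Downwards, S-adenosylmethionine synthetase (Gloin1_345729), which makes the methyl donor, changed by -0.34 ± 0.06 and methylenetetrahydrofolate reductase (Gloin1_69557), which supplies the methyl group of methionine, by -0.40 ± 0.07.

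**Figure D2:**
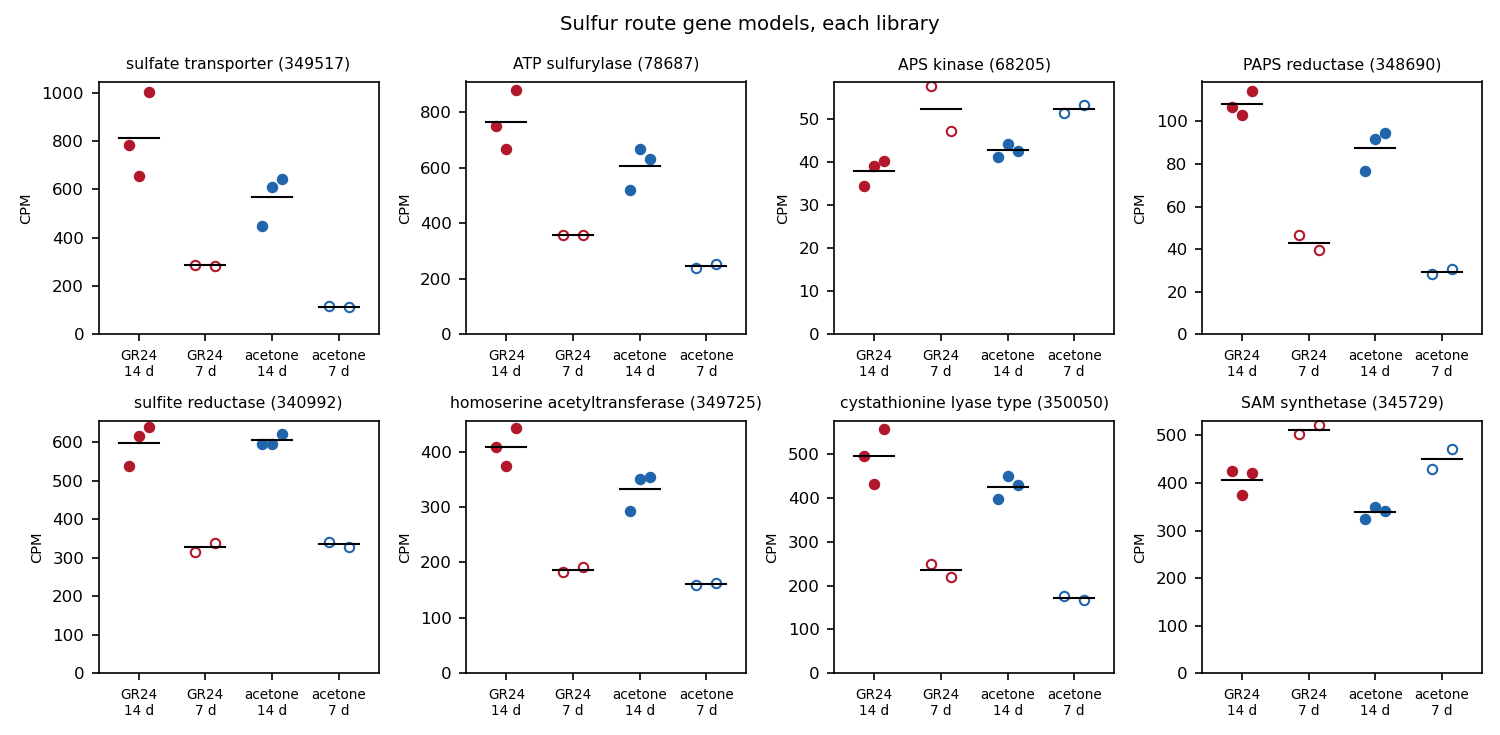
Levels of 8 sulfur route models in CPM on linear axes from 0, 1 point per library, filled at 14 d and open at 7 d, red with GR24 and blue with acetone, black bar at the mean. In 6 panels all GR24 libraries at 14 d lie above those at 7 d, such as ATP sulfurylase at 668 to 879 CPM against 356 and 358 CPM, and adenylyl sulfate kinase and S-adenosylmethionine synthetase lie below.

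The largest rises were smaller than the largest falls. The steepest was a short model with no described domain, Gloin1_35042, whose best match is a predicted animal myosin. It had 262, 327 and 301 CPM at 14 d, against 38.2 and 30.6 CPM at 7 d (3.10 ± 0.12, edgeR adjusted p = 3.8e-09). NmrA-like proteins bind NAD(P) and act as oxidoreductases or redox sensors in fungi. Of 15 tested 5 rose, 2 fell and 8 did not pass (median 0.14), and 3 rose without 14 d replicate 1 or either 7 d library. Gloin1_340435 had 475, 443 and 525 CPM at 14 d, against 217 and 199 CPM at 7 d (1.20 ± 0.07), and Gloin1_197966 had 1305, 1208 and 1395 CPM, against 618 and 542 CPM at 7 d (1.16 ± 0.07). The NmrA-like model Gloin1_212347 had 210, 145 and 251 CPM at 14 d, against 40.0 and 22.2 CPM at 7 d (2.68 ± 0.44, edgeR adjusted p = 0.029), with wide spread in both groups. Its call was lost without 14 d replicate 1 (2.65), 7 d replicate 2 (3.18) or 7 d replicate 3 (2.33). A class V aminotransferase resembling the molybdenum cofactor sulfurase (Gloin1_3482) had 98.3, 71.0 and 121 CPM at 14 d, against 19.2 and 14.2 CPM at 7 d (2.52 ± 0.33, edgeR adjusted p = 0.0094). That call was likewise lost without 7 d replicate 2 (2.77) or replicate 3 (2.32). The hedgehog-type hint domain models Gloin1_287133 (1.81 ± 0.17) and Gloin1_8229 (1.54 ± 0.14) rose. An NAD(P)-binding model, Gloin1_348858, had 60.6, 77.1 and 62.2 CPM at 14 d, against 18.4 and 18.3 CPM at 7 d (1.85 ± 0.13). A further NmrA-like model, Gloin1_14468, changed by 1.67 ± 0.38, with its call lost in limma-voom and without 14 d replicate 1 (1.59), 7 d replicate 2 (1.93) or 7 d replicate 3 (1.47). Near the lower limit of 10 CPM in the higher group, a model annotated like a myosin heavy chain (Gloin1_6581) changed by 1.93 ± 0.27 and one annotated like the transcription regulator Rlr1 (Gloin1_14857) by 1.55 ± 0.20. A major facilitator transporter (Gloin1_12072) changed by 1.65 ± 0.30 and a rhodopsin-type receptor model (Gloin1_33646) by 1.53 ± 0.35. Both of these calls were lost without 7 d replicate 2 (1.73 for Gloin1_33646), and that of Gloin1_33646 also without 7 d replicate 3 (1.38). Of the undescribed models, Gloin1_7411 had 41.1, 30.0 and 44.2 CPM at 14 d, against 11.6 and 12.2 CPM at 7 d (1.68 ± 0.17). Gloin1_250556 had 257, 198 and 280 CPM at 14 d, against 99.7 and 94.2 CPM at 7 d (1.33 ± 0.16), a call lost without 7 d replicate 2 (1.38) or replicate 3 (1.29).

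Membrane transport and detoxification lists are set beside the 13.3% higher and 14.8% lower over all tested models. Of 44 tested ABC transporters, ATP-driven pumps, 16 rose (36.4%) and 4 fell (median 0.16; 2 fell without 14 d replicate 2 or 7 d replicate 2), with small sizes such as 0.44 ± 0.07 for the multidrug resistance-associated type Gloin1_14031. Of 132 cytochromes P450, enzymes that oxidise hydrophobic molecules, 33 rose (25%), 14 fell and 85 did not pass (median 0.08). The P450 model Gloin1_23642 had 151, 150 and 174 CPM at 14 d, against 73.6 and 74.2 CPM at 7 d (1.09 ± 0.08), and Gloin1_36234 changed by 1.02 ± 0.09. In the other 2 lists the shares called higher were near that over all models. The shares called lower were 11.5% for major facilitator transporters and 3.23% for P-type ATPases. Of 52 major facilitator transporters 9 rose (17.3%) and 6 fell (3, 2 and 3 fell without 14 d replicate 1, 14 d replicate 3 or 7 d replicate 3), and of 31 P-type ATPases 5 rose (16.1%) and 1 fell, the number that rose being 3 without 7 d replicate 2 and 9 without replicate 3. A copper-exporting ATPase model (Gloin1_32421) had 130, 117 and 205 CPM at 14 d, against 40.7 and 44.9 CPM at 7 d (1.81 ± 0.36, edgeR adjusted p = 0.042), a call lost without 7 d replicate 2 (1.74) or replicate 3 (1.88), in limma-voom and without the filter. By contrast glutathione S-transferases and antioxidant enzymes fell in 15 of 44 models and rose in 3 (median -0.12). Glutathione peroxidase (Gloin1_339767), which reduces peroxides, changed by -0.46 ± 0.07.

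**Figure D3:**
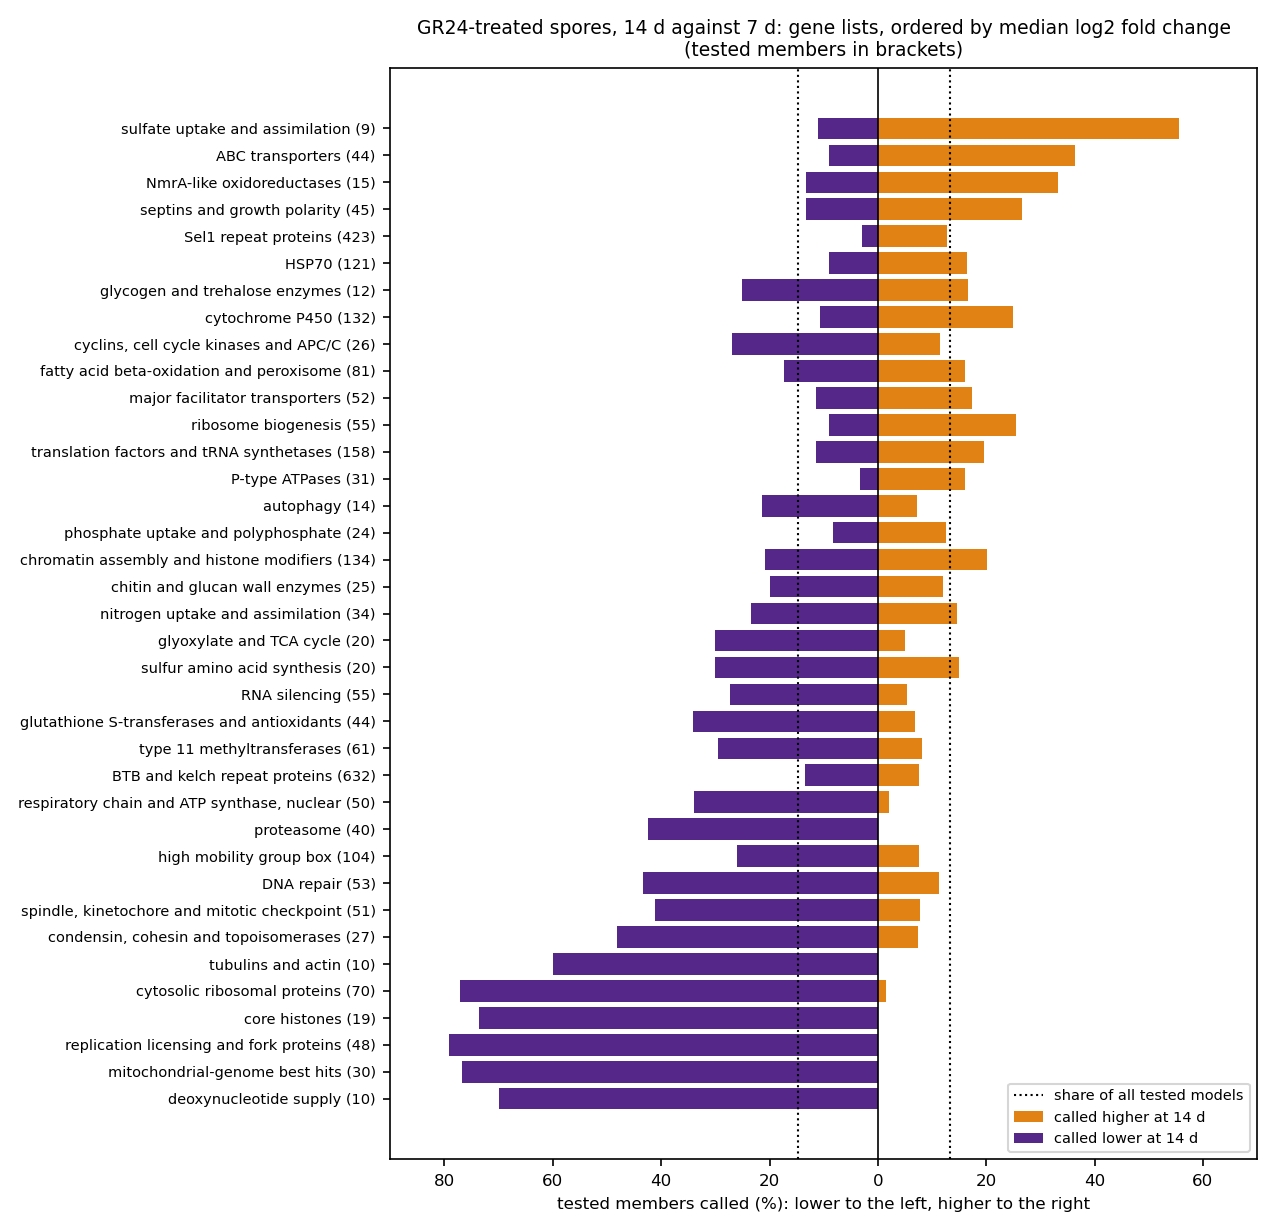
Share of the tested members of each of 37 gene lists called lower (purple, to the left) and higher (orange, to the right) at 14 d against 7 d with GR24, in percent, ordered by the list's median log2 fold change, with dotted lines at the shares over all tested models (14.8% lower, 13.3% higher). Sulfate assimilation stands at the top with 55.6% higher. Deoxynucleotide supply with 70% lower and mitochondrial-genome best hits with 76.7% stand at the bottom, with replication (79.2%) and core histones (73.7%) next, and the lower share of ribosomal proteins (77.1%) goes with a smaller median.

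Several models outside the lists of nuclear division also came close to 0. A SUMO protease of the Ulp1 family (Gloin1_25943), which removes the SUMO modifier from proteins, had 0.197, 0 and 0.833 CPM at 14 d, against 43.9 and 39.7 CPM at 7 d (-6.85 ± 0.34, edgeR adjusted p = 8.7e-09). A collagen-like repeat model (Gloin1_347597) had 0.295, 0 and 0.278 CPM, against 16.6 and 20.4 CPM at 7 d (-6.51 ± 0.36). A LysM-domain model (Gloin1_349023), a domain that binds chitin or peptidoglycan, had 0.689, 0 and 0.370 CPM, against 16.4 and 21.7 CPM at 7 d (-5.71 ± 0.38). The rule for naming the largest falls required that the groups did not overlap, so their separation follows from that choice. A zinc-finger model (Gloin1_146233) changed by -5.90 ± 0.36, a histone-fold transcription factor model (Gloin1_348485) by -6.16 ± 0.37 and a BTB-domain model (Gloin1_24977) by -5.83 ± 0.40. The undescribed model Gloin1_349182 had 0.394, 0.097 and 0.185 CPM at 14 d, against 28.5 and 28.4 CPM at 7 d (-6.92 ± 0.29). The undescribed models Gloin1_344334 and Gloin1_287248 changed by -6.40 ± 0.43 and -5.71 ± 0.20, and a model annotated like a nucleolar phosphoprotein (Gloin1_95080) by -5.78 ± 0.44.

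The large families of this genome are set beside the 13.3% higher and 14.8% lower over all tested models. Near these were the shares called higher of Sel1 repeat proteins (12.8%) and HSP70 chaperones (16.5%), and the share called lower of BTB and kelch repeat proteins (13.4%). The shares called lower were 2.84% for Sel1 repeat proteins, 26% for HMG box proteins, 27.3% for RNA silencing models and 29.5% for type 11 methyltransferases. Sel1 repeat proteins, adaptors expanded in this fungus, had 54 of 423 tested models higher and 12 lower (median 0.12), with 6 lower in DESeq2 or without 7 d replicate 3. BTB and kelch repeat proteins, many of them adaptors of ubiquitin ligases, had 48 of 632 higher and 85 lower (median -0.14). HMG box proteins, which bend DNA and in this fungus are numerous, had 8 of 104 higher (5 without 14 d replicate 3) and 27 lower (median -0.15), among them Gloin1_337560 at 4.23, 4.66 and 3.89 CPM, against 56.0 and 48.2 CPM at 7 d (-3.62 ± 0.15). HSP70 chaperones had 20 of 121 higher and 11 lower (median 0.10). The higher ones included Gloin1_340280 at 469, 543 and 534 CPM, against 278 and 253 CPM at 7 d (0.95 ± 0.07). RNA silencing models had 15 of 55 lower and 3 higher (median -0.12), and 5 higher without 7 d replicate 3. Their falls included the Argonaute-type Gloin1_42862 (-1.75 ± 0.19), and their rises the RNA-directed RNA polymerase Gloin1_72913 (0.54 ± 0.10). Type 11 methyltransferases had 18 of 61 lower and 5 higher (median -0.14), and the lower number was 9 in DESeq2 and 11 without 7 d replicate 3.

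Beside the 13.3% higher and 14.8% lower over all tested models, further nutrient and storage lists held calls in both directions. Phosphate uptake and polyphosphate had 3 of 24 higher and 2 lower, nitrogen uptake and assimilation 5 of 34 higher and 8 lower, and fatty acid beta-oxidation and peroxisome 13 of 81 higher and 14 lower. Single libraries moved these counts: without 14 d replicate 1 or 3 the nitrogen list had 3 higher and 5 lower, and without 7 d replicate 2 the beta-oxidation list had 9 lower. The glyoxylate and TCA cycle list had 1 of 20 higher and 6 lower (30% lower, and 3 models without 7 d replicate 2), glycogen and trehalose enzymes had 2 of 12 higher and 3 lower, and autophagy 1 of 14 higher and 3 lower (0 lower in DESeq2 and without 14 d replicate 1 or 2 or 7 d replicate 3). Arginase (Gloin1_217252), which splits arginine into ornithine and urea, had 210, 231 and 218 CPM at 14 d, against 318 and 332 CPM at 7 d (-0.57 ± 0.06). Ornithine aminotransferase (Gloin1_94698), the step after it, changed by -0.41 ± 0.06. Glycogen synthase (Gloin1_345011) was higher (0.47 ± 0.06), while neutral trehalase (Gloin1_314736), which splits the storage sugar trehalose, was lower (-0.42 ± 0.06). Among the 25 tested wall enzymes 3 rose and 5 fell (median -0.03), with 1 rise without 7 d replicate 2 and 3 falls without 7 d replicate 3. The chitin deacetylase Gloin1_90007, which turns chitin into chitosan, had 1142, 1243 and 1294 CPM at 14 d, against 890 and 990 CPM at 7 d (0.38 ± 0.06), and the chitin synthases Gloin1_121270 and Gloin1_68147 changed by -0.47 ± 0.10 and -0.30 ± 0.07. Septins and polarity proteins, which shape the hyphal tip, had 12 of 45 higher and 6 lower (median 0.13), with 7 higher without 7 d replicate 2 and 3 lower without 14 d replicate 2. The formin-type model Gloin1_235433, of a family that nucleates actin cables, changed by 0.54 ± 0.09.

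Acetone-treated spores were compared over the same interval, to set the change with GR24 beside that with the vehicle. Of 14347 models tested 3844 passed (26.8%), 1897 higher (13.2%) and 1947 lower (13.6%) at 14 d. With upper-quartile scaling the split was 1525 higher and 2333 lower. Changes of at least 2-fold were found in 185 of the higher models (1.29%) and 504 of the lower ones (3.51%). The GR24 and acetone comparisons share no library. Of the models higher with GR24, 1219 were higher with acetone too, 62.7% of the GR24 list and 64.3% of the acetone list. Of the models lower with GR24, 1213 were lower with acetone, 55.7% and 62.3% of the 2 lists. Opposite calls were found in 3 models, which were lower with GR24 and higher with acetone. Without acetone 7 d replicate 2 the acetone count was 2160, 1031 higher and 1129 lower. Sulfate assimilation had 5 of 9 models higher in acetone as well (median 0.56), and ribosomal proteins 47 of 70 lower (median -0.23).

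The change itself differed between GR24 and acetone in 158 of 15046 models (1.05%) by the edgeR interaction test. In 24 the difference was above 0 (0.16%) and in 134 it was below 0 (0.891%). It reached 2-fold in 4 of the 24 models above 0 (0.0266%) and in 71 of the 134 below 0 (0.472%). Of the 134, 80 were lower at 14 d with both treatments and 40 were lower with GR24 and not called with acetone. Nuclear division models made up much of this group. In the union of the 7 lists of histones, replication, deoxynucleotides, chromosome structure, spindle, cell cycle and repair, 46 of 237 tested models had a difference below 0 (19.4%) and 0 above 0 (1 at the unadjusted level, 0 in DESeq2 and limma-voom), with a median difference of -0.26. In the same union 123 of 234 fell with GR24 (52.6%, median -0.35) and 85 of 231 with acetone (36.8%, median -0.16). The list of chromatin assembly and histone modifiers, which is not in this union, had 5 of 133 models below 0. It had 0 above 0 (7 at the unadjusted level, 0 in DESeq2 and limma-voom). By list, the difference was below 0 in 8 of 19 core histones, 14 of 48 replication models, 5 of 10 deoxynucleotide models and 7 of 52 spindle models, and in 0 of 70 ribosomal proteins (5 at the unadjusted level, 0 in DESeq2 and limma-voom).

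Core histones stood apart by treatment at 7 d and overlapped at 14 d. The summed level of the core histones was 2196, 2085 and 2210 CPM with GR24 and 2216, 2239 and 2082 CPM with acetone at 14 d, and 4315 and 4009 CPM with GR24 and 2814 and 3043 CPM with acetone at 7 d. For the H4 model Gloin1_29938 the acetone libraries had 62.2, 61.3 and 49.8 CPM at 14 d, against 118 and 129 CPM at 7 d. The GR24 minus acetone difference of its log2 change was -1.26 (edgeR adjusted p = 6.69e-08). For topoisomerase II (Gloin1_141416) the acetone libraries had 3.81, 4.42 and 2.54 CPM at 14 d, against 53.9 and 49.6 CPM at 7 d, and the difference was -1.51. For the polymerase alpha-primase model Gloin1_89787 the GR24 libraries had 14.4, 14.7 and 13.1 CPM at 14 d, against 63.5 and 56.8 CPM at 7 d, and the difference was -1.57. With all time-course libraries in 1 fit the calls of this H4 model (-1.25, edgeR adjusted p = 0.073) and of topoisomerase II (-1.50, edgeR adjusted p = 0.12) were lost. At 14 d the GR24 and acetone libraries of histone H4 and topoisomerase II overlapped, and at 7 d they did not. Without 1 of the 7 d libraries the count of 158 was 93 (GR24 replicate 2), 225 (GR24 replicate 3), 87 (acetone replicate 1) or 97 (acetone replicate 2), and it was 43 with all time-course libraries in 1 fit.

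Some of the largest differences were in models with no description. The undescribed model Gloin1_345873 had 40.6, 35.5 and 39.1 CPM at 14 d, against 477 and 426 CPM at 7 d with GR24. With acetone it had 38.1, 31.2 and 55.2 CPM at 14 d, against 101 and 116 CPM at 7 d, and the difference was -2.19 (edgeR adjusted p = 0.03). That call was lost in 8 of the 10 fits that left out a library, with values from -2.29 to -2.09. The undescribed model Gloin1_347197 had 1.08, 0.291 and 0.648 CPM at 14 d, against 24.2 and 24.2 CPM at 7 d with GR24, and stayed under 2 CPM in all acetone libraries at both times (difference -4.34). Chosen after their values were seen, a mitochondrial DNA helicase model (Gloin1_206964, -1.12 ± 0.16), a model of the mitochondrial genome maintenance protein MGM101 (Gloin1_349645, -0.70 ± 0.10) and a DNA cytosine methyltransferase (Gloin1_336043, -1.04 ± 0.19) also had differences below 0. The methyltransferase, which marks cytosines in DNA, had 14.1, 15.9 and 14.7 CPM at 14 d, against 62.4 and 50.5 CPM at 7 d with GR24. Of the 24 models with a difference above 0, 16 fell with acetone and did not pass with GR24. They included a multicopper oxidase (Gloin1_5484, 0.85 ± 0.19), the P450 model Gloin1_4393 (0.70 ± 0.13) and a cation channel type model (Gloin1_288412, 0.96 ± 0.18), again chosen after their values were seen. The P450 model Gloin1_3480 (0.57 ± 0.14), chosen likewise, rose with GR24 and did not pass with acetone.

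**Figure D4:**
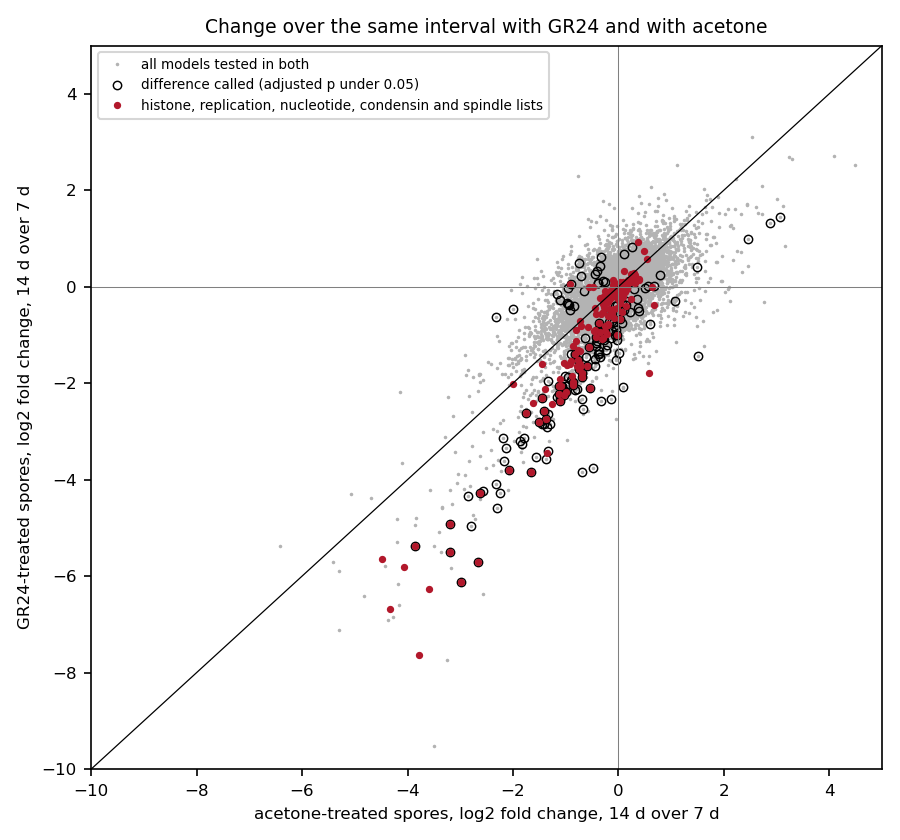
Log2 fold change of 14 d over 7 d with GR24 (y axis) against that with acetone (x axis), 1 grey point per model tested in both, with the 5 lists of histones, replication, deoxynucleotides, chromosome structure and spindle in red and models with a called difference circled. Circled models lie mostly below the diagonal, where the fall with GR24 is the larger one, such as histone H3 Gloin1_334093 at -5.51 with GR24 and -3.20 with acetone.

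The earlier times show where the interval begins. Topoisomerase II (Gloin1_141416) with GR24 had 10.3, 10.5 and 11.3 CPM at 1 h, 163 and 130 CPM at 2 d, 134 and 148 CPM at 7 d, and 4.13, 2.13 and 3.89 CPM at 14 d. All 14 d libraries were below those at 1 h. The H4 model Gloin1_29938 with GR24 had 33.6, 31.8 and 35.0 CPM at 1 h and 344 and 270 CPM at 2 d, so that its 14 d level of 57.1 to 59.3 CPM was above the 1 h level. The sulfate transporter Gloin1_349517 with GR24 had 59.0 to 78.5 CPM at 1 h and 66.7 and 54.5 CPM at 2 d, below its 284 and 287 CPM at 7 d and 655 to 1002 CPM at 14 d. The model Gloin1_35042 had 9.58 to 14.2 CPM at 1 h and 22.2 and 19.9 CPM at 2 d. No test was run between these earlier times.

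**Figure D5:**
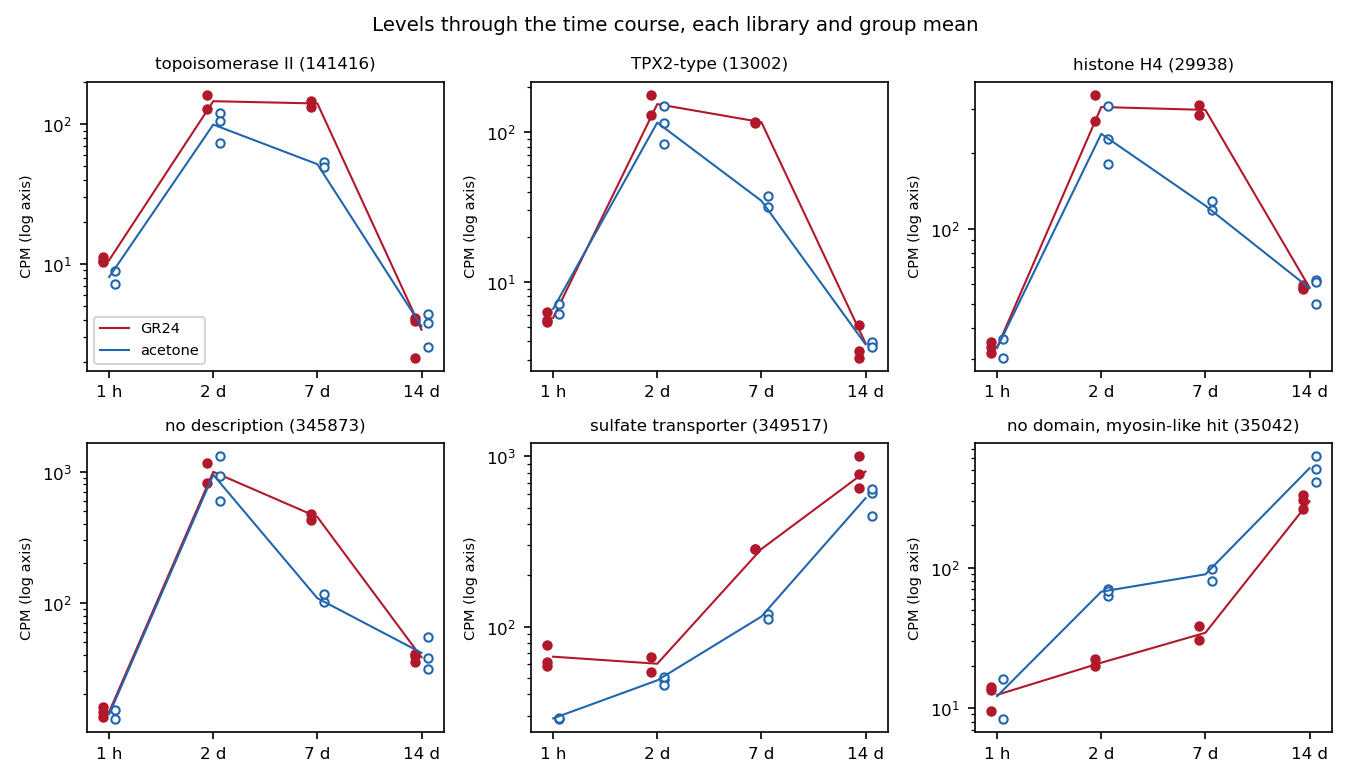
Levels of 6 models at 1 h, 2 d, 7 d and 14 d in CPM on log axes, with points for libraries and lines through group means, red with GR24 and blue with acetone. Topoisomerase II, the TPX2-type model, histone H4 and the undescribed model Gloin1_345873 are high at 2 d and 7 d and low at 1 h and 14 d, while the sulfate transporter and model Gloin1_35042 are highest at 14 d.

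Models that respond to GR24 elsewhere in the time course behaved in different ways between 7 d and 14 d. The chitin synthase with a cytochrome b5 domain, Gloin1_67965, had 78.4, 82.1 and 138 CPM at 14 d and 55.3 and 54.7 CPM at 7 d. Its 2 times did not overlap, as in 26.9% of all tested models higher at 14 d (0.85 ± 0.35, edgeR adjusted p = 0.19). Without 14 d replicate 3, its highest library, the log2 fold change was 0.54 and passed (edgeR adjusted p = 0.0011), and it also passed with all time-course libraries in 1 fit (0.86, edgeR adjusted p = 0.0036). The arylacetamide deacetylase type hydrolase Gloin1_346819 had 7.97, 8.35 and 6.57 CPM at 14 d, against 18.2 and 16.1 CPM at 7 d (-1.18 ± 0.17, edgeR adjusted p = 4.3e-05). The P450 model Gloin1_345274 had 11.8, 8.64 and 10.8 CPM at 14 d, against 22.4 and 20.2 CPM at 7 d (-1.04 ± 0.16). The P450 model Gloin1_347608 had 248, 250 and 428 CPM at 14 d and 323 and 372 CPM at 7 d, which overlap (-0.18, edgeR adjusted p = 0.77). Without 14 d replicate 3 it was lower by 0.49 and passed (log2 fold change -0.49, edgeR adjusted p = 0.00039). The ubiquitin ligase type model Gloin1_350230 had 324, 315 and 387 CPM at 14 d and 337 and 337 CPM at 7 d with GR24, against 114, 126 and 136 CPM at 14 d and 80.2 and 77.7 CPM at 7 d with acetone. Its GR24 change was 0.01 ± 0.08, its acetone change 0.67 and their difference -0.66 (edgeR adjusted p = 0.003), a call lost without GR24 7 d replicate 2 (-0.65) or acetone 7 d replicate 2 (-0.63). The methyltransferase Gloin1_20845 had 16.5, 22.1 and 44.6 CPM at 14 d and 30.1 and 24.2 CPM at 7 d, which overlap (0.03 ± 0.55). The rhodopsin-type receptor model Gloin1_326783 had 50.9, 29.6 and 60.1 CPM at 14 d and 17.4 and 11.8 CPM at 7 d (1.67 ± 0.43, edgeR adjusted p = 0.065). It passed in DESeq2 (adjusted p = 0.0013), with all 7 d and 14 d libraries (edgeR adjusted p = 0.0053) or all time-course libraries (edgeR adjusted p = 7.4e-05) in 1 fit, and without 14 d replicate 2 (1.91) or replicate 3 (1.45). In Gloin1_67965, Gloin1_347608 and Gloin1_20845 replicate 3 of 14 d was the highest of its group.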

How the data were processed

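The deposited tables give, per the file headers, raw counts of paired Illumina reads per gene model, total and unique, with gene descriptions. Neither the aligner nor its settings or use of strand is given in the sources used here. Per the labels' protocols, RNA was selected on poly(T) beads. Total counts of the 14 d and 7 d tables were joined by model identifier, and each column was assigned to its sample by barcode and name. The members, gene lists and tests were chosen with earlier results of these data known. Lists are keyword matches in the descriptions.

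The test was edgeR 4.0.16 quasi-likelihood (R 4.3.3, TMM scaling, filterByExpr by group, 2-sided, Benjamini-Hochberg at 0.05 over all tested models). The difference between treatments was the interaction contrast over the 10 libraries at 7 d and 14 d. DESeq2 1.42.0 and limma-voom (limma 3.58.1) were alternatives, beside other scalings, no filter, unique reads, larger fits, a replicate block and each library left out. CPM values are TMM-scaled over 20 time-course libraries, and standard errors are derived from the fitted F statistics. On simulated counts 200 models with a mean of at least 5 CPM were changed 2-fold. Of these 200 models 95.5% were recovered with GR24, where 14413 were tested, and 11.6% of calls were false. For the interaction 84% were recovered and 8.7% of calls were false. Both false shares were above the threshold of 0.05. With GR24 far fewer models were changed in the simulation (200) than were called in the data (4121), so its shares need not hold for those calls.

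Depth was 8338429 to 10661354 assigned reads with GR24, and folds at 0 to 3 reads carry counting error only. No 2 libraries of a group agreed within sampling noise, so none was counted as a duplicate. Models named were, by rule, the 12 largest described rises and falls and the 3 undescribed ones each way (at least 10 CPM, groups not overlapping), the 2 members per list and direction with the smallest p, the 8 largest differences, and models known from other comparisons. Further list members are given to describe the lists. Not every list member that the rule names is printed, and 1 such model is not reported here. Equal replicate numbers with GR24 correlated at 0.0441 and 0.0262 (deviations from group means, 2 pairs), which does not show that they pair the samples.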

Additional observations from a re-analysis of the deposited data

Results flagged for a closer look

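The 158 models whose 14 d against 7 d change differed between GR24 and acetone by the interaction test are set out here because the effect of time was not the same in the 2 treatments. Of the 8 models with the largest such differences among those with a mean of at least 10 CPM in the highest group and GR24 libraries that did not overlap between times, 3 belong to nuclear division. The TPX2-type model Gloin1_241521 had a GR24 minus acetone difference of -3.12 (log2) and the kinesin Gloin1_68162 of -3.04. Both were under 1.1 CPM in all libraries at 14 d, and their calls were lost in 11 and 10 of the alternatives, the value of Gloin1_241521 being -2.23 without acetone 14 d replicate 3. The histone H3 model Gloin1_334093 had -2.30, with 3.44, 1.75 and 2.04 CPM at 14 d, against 125 and 92.5 CPM at 7 d with GR24, and 4.13, 4.31 and 2.91 CPM at 14 d, against 35.3 and 33.4 CPM at 7 d with acetone. Its call was lost with all time-course libraries in 1 fit (-2.30, edgeR adjusted p = 0.082).

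An HSP70-type model, Gloin1_272278, of a family of protein-folding chaperones, had a difference of -2.28. The other 4 carry no described domain. Gloin1_347197 had -4.34 and Gloin1_339518 had -3.25. Gloin1_339518 had 0.886, 0.970 and 0.648 CPM at 14 d, against 11.3 and 11.2 CPM at 7 d with GR24, and 0.470 to 1.29 CPM in all acetone libraries. Gloin1_334422 had -2.24, with 2.76, 2.13 and 2.68 CPM at 14 d, against 11.3 and 14.2 CPM at 7 d with GR24, and Gloin1_345873 had -2.19. The calls of Gloin1_272278, Gloin1_334422 and Gloin1_345873 were lost in 11, 10 and 9 of the alternatives, with -1.44 for Gloin1_334422 without acetone 7 d replicate 2, and those of Gloin1_339518 and Gloin1_347197 in 2 each.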

How the results depend on the processing

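Of the GR24 calls, 297 (10 higher and 287 lower, 112 of them in the lists) passed a test against a 2-fold change. The other settings kept the total within 1.5 times, with 1443 higher and 1692 lower in DESeq2, 1979 and 2190 with the replicate block and 3149 to 3824 calls with a library left out. The acetone calls ranged from 2160 to 3622 with a library left out (1031 to 1797 higher, 1129 to 1825 lower). The count of 158 differences was 352 without the filter (105 above 0, 247 below 0), 43 with all time-course libraries in 1 fit (4 and 39), 157 with the replicate block, and 87 to 225 with a library left out (10 to 83 above 0, 71 to 142 below 0). The causes were not tested. Of the log2 fold changes of single models under the alternatives 2671 kept direction and call, 64 lost and 10 gained a call, and 5 reversed. With the replicate block Gloin1_212347 lost its call (2.61), Gloin1_67965 (0.95) and Gloin1_326783 (1.54) gained one, and the difference of Gloin1_241521 was -2.08. The ubiquitin ligase type Gloin1_350230 gave -0.0020 with upper-quartile factors and -0.085 to 0.070 with a library left out. The methyltransferase Gloin1_20845 gave -0.091 in limma-voom and -0.50 to 0.29 with a library left out. With 2 libraries at 7 d, leaving 1 out leaves an arm with 1 library, assumed to vary like the other groups. Models under a few CPM at 14 d rest on few reads.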

Other observations

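Transcripts of mitochondrial DNA upkeep were not in any list, and these models were chosen after their values were seen. The mitochondrial DNA helicase model Gloin1_206964, of the Twinkle type, had 19.0, 19.3 and 17.5 CPM at 14 d, against 96.6 and 84.1 CPM at 7 d with GR24, and 20.2, 20.3 and 22.6 CPM at 14 d, against 47.0 and 47.8 CPM at 7 d with acetone. Its log2 change was -2.29 with GR24 and -1.16 with acetone. The MGM101-type model Gloin1_349645, named for a yeast protein that maintains mitochondrial DNA, had 92.8, 102 and 100 CPM at 14 d, against 222 and 202 CPM at 7 d with GR24. In both models the 14 d and 7 d libraries did not overlap in either treatment. With GR24 this held, lower at 14 d, in 26.3% of all tested models.

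RNA silencing models also held differences between the treatments, below 0 in 3 of 55 tested models, against 0.891% over all models. Above 0 there were 0 (0 also at the unadjusted level, in DESeq2 and in limma-voom). The Argonaute-type Gloin1_14398, of the family that binds small RNAs, had 0.886, 0.388 and 0.370 CPM at 14 d, against 5.50 and 10.4 CPM at 7 d with GR24, and 0.539 to 1.71 CPM in the acetone libraries (difference -3.14 ± 0.70). The Piwi-domain model Gloin1_10157 had 6.40, 6.02 and 5.92 CPM at 14 d, against 12.1 and 8.75 CPM at 7 d with GR24 (difference -1.39 ± 0.34). With acetone this model had 5.40, 5.28 and 4.42 CPM at 14 d, against 4.00 and 2.82 CPM at 7 d. Its log2 change was -0.78 with GR24 and 0.61 with acetone, so both parts entered the difference. The more abundant Argonaute-type Gloin1_115595 differed less. It had 257, 298 and 267 CPM at 14 d, against 369 and 342 CPM at 7 d with GR24 (difference -0.35 ± 0.09). A dual-specificity kinase model related to the spindle checkpoint kinase Mps1, Gloin1_127204, had 2.95, 1.84 and 2.78 CPM at 14 d, against 12.7 and 13.4 CPM at 7 d with GR24, and 3.99 to 5.74 CPM in the acetone libraries (difference -2.04 ± 0.34).

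Of the 24 differences above 0, 2 were in models annotated with microvirus proteins, a bacteriophage family one of whose members is used as a sequencing control. The model Gloin1_2569 had 239, 265 and 231 CPM at 14 d and 232 and 231 CPM at 7 d with GR24, and 223, 248 and 228 CPM at 14 d and 277 and 335 CPM at 7 d with acetone (difference 0.47 ± 0.10). The part of such a source in the libraries was not tested.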
